A study of Mus musculus with 12 samples.

Results

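The Sprouty genes Spry1, Spry2 and Spry4, the related genes Spred1 and Spred2, the ERK phosphatase genes Dusp4, Dusp5 and Dusp6 and the transcription factor genes Etv4 and Etv5 were followed in mouse lung epithelial cells. These 10 genes were taken by name from the array's annotation, as the probe sets with exactly 1 of those symbols. They had 12 of 41345 probe sets and were 10 of 22180 named genes. Dusp6 and Etv5 had more than 1 probe set, and the one with the higher mean signal on the 12 arrays was taken as the gene's main probe set.

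The cells were MLE12, a mouse distal lung epithelial line immortalised with the SV40 large T antigen, measured on 12 arrays in 4 groups of 3. The groups were cells given NANCI shRNA, their scrambled shRNA group (titled NANCI control), cells given LL34 shRNA, and their own scrambled shRNA group (titled LL34 control). NANCI and LL34 are long noncoding RNAs. All 12 cultures had been infected at 60% confluency for 12 hours with lentivirus made from a pLKO.1 shRNA construct and were collected after a further 65 hours. No group without virus was analysed here, so the control cultures had been given a construct too. The labels call the replicates biological without naming separate infections. The p-values therefore rest on the spread of 3 arrays per group, which may be technical. They give neither an shRNA sequence nor the number of constructs per target. The comparisons ask how each shRNA group differed from its own scrambled group.

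Fibroblast growth factors and other ligands of receptor tyrosine kinases act through RAS and a chain of kinases that ends in ERK. ERK activity induces genes whose products damp the same signal: Sprouty and Spred proteins act between the receptor and RAF, and dual-specificity phosphatases remove phosphates from ERK and related kinases. Etv4 and Etv5, Ets factors of the PEA3 group, are transcriptional targets and effectors of FGF signalling at the tips of the branching lung. RNA levels of such genes are widely read as a record of pathway activity, but the arrays measured RNA alone, not ERK phosphorylation.

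Values are log2 signals of probe sets, so a difference of 1 is a doubling of signal. The 6 arrays with NANCI or NANCI control shRNA (the NANCI set) had medians of 6.84 to 6.88, and the 6 LL34 arrays had medians of 6.54 to 6.61. Changes were therefore taken within a set. Any pair of replicates had a correlation of at least 0.986, and LL34_control replicate 3 had the lowest mean correlation with its own group, 0.988. In the NANCI shRNA group, Sfta3-ps, for which RefSeq gives Nanci as another name, averaged 8.98 ± 0.218, against 11.90 ± 0.133 in its scrambled group (SD, n = 3 each). In the LL34 shRNA group Sfta3-ps averaged 11.33 ± 0.179, against 12.01 ± 0.0755 (SD, n = 3 each). The LL34 RNA was not analysed here. Nkx2-1, the lung epithelial homeodomain factor, had means of 10.13 and 11.13 in the NANCI shRNA group and its scrambled group, and 10.39 and 10.65 in the LL34 shRNA group and its scrambled group. Up to 1681 probe sets had exactly the same deposited value, at all its digits, on a pair of LL34 arrays. The main and dimmer probe sets of the feedback genes had 0 such values between replicates of a group, and 1 between LL34_shRNA replicate 3 and LL34_control replicate 2.

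After NANCI knockdown Etv4, Etv5 and all 3 ERK phosphatase genes were higher, and Spry1, Spred1 and Spred2 were lower. In all, 5 of 10 genes rose and 3 fell (limma, Benjamini-Hochberg adjusted p under 0.05 over all 41345 probe sets), while Spry2 and Spry4 did not pass. Among all named genes 13.2% rose and 13.6% fell. Those shares include dim genes, whereas the 10 main probe sets were all at or above the median level. In a fit of the 20673 probe sets at or above that level, 4389 rose and 4024 fell. The median change of the 10 genes was 0.32, against 0.00 over all named genes. In each of the 8 genes that passed, the 3 shRNA arrays lay on 1 side of the 3 scrambled arrays. That held upward in 20.5% and downward in 20.0% of named genes.

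With the LL34 shRNA (called LL34 knockdown below, though LL34 itself was not measured), other combinations of these genes passed. Etv5, Spry4 and Spred1 rose and Spry1 and Dusp4 fell, while Spry2, Spred2, Dusp5, Dusp6 and Etv4 did not pass. These 3 rises and 2 falls among 10 genes compare with 9.77% and 10.3% of named genes, dim genes included. When the 20673 brighter probe sets were fitted alone, 4324 of them rose and 2885 fell. The median change of the 10 feedback genes was 0.00, against −0.02 over all named genes. In each of the 5 genes that passed, shRNA and scrambled arrays did not overlap, as in 18.1% of named genes upward and 17.2% downward. Of these calls, only that of Spry1 held in a fit of the 6 LL34 arrays alone, where Etv5, Spry4, Dusp4 and Spred1 had adjusted p-values of 0.055, 0.0573, 0.0986 and 0.143.

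**Figure D1:**
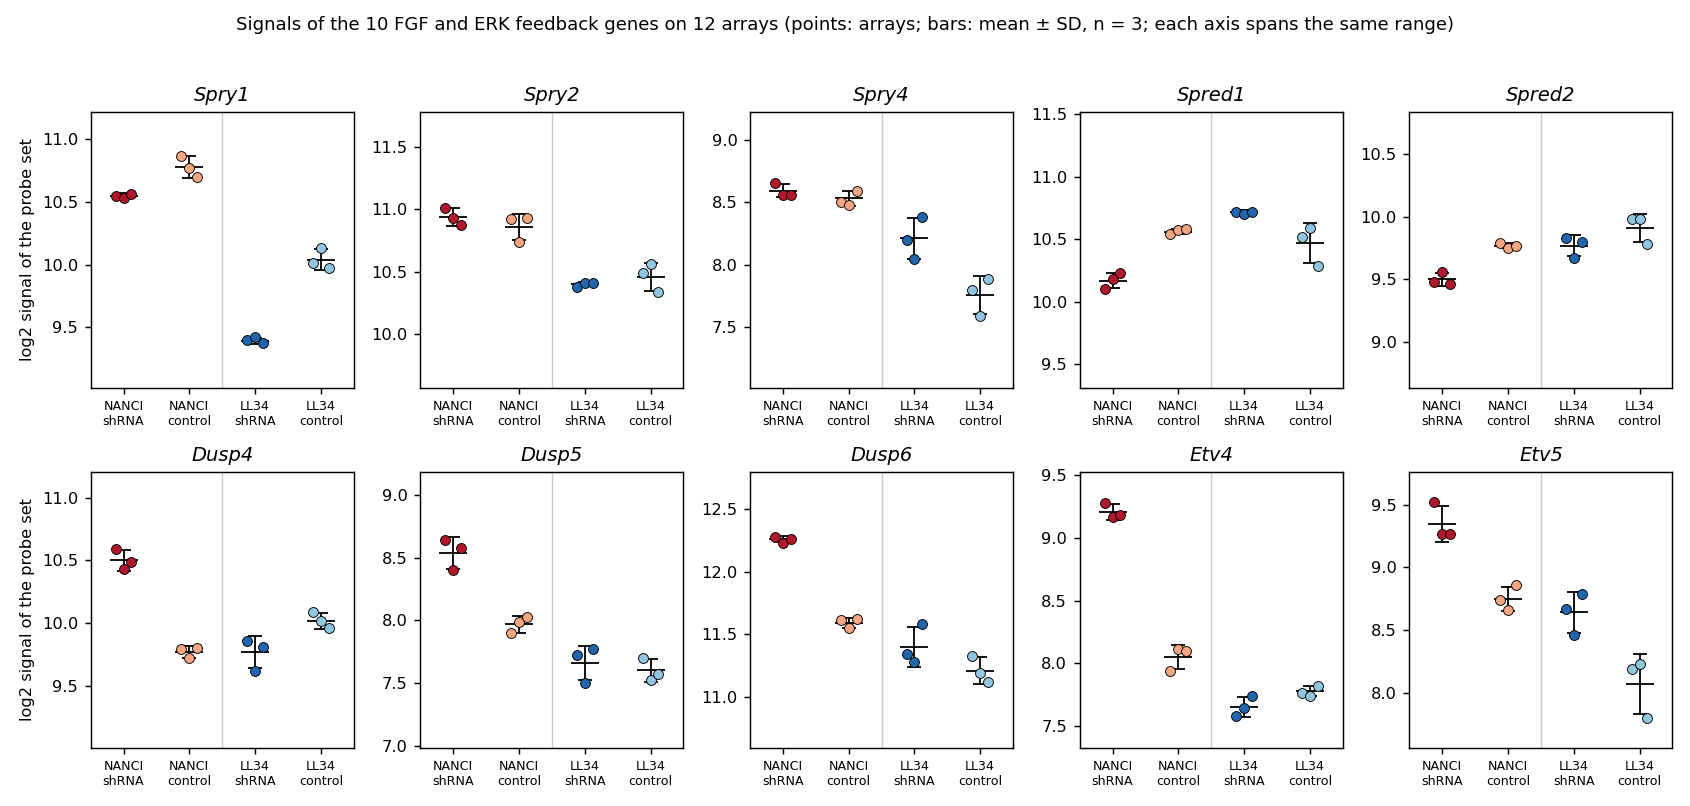
Log2 signal of the main probe set of each feedback gene on every array (points), with the mean and SD of 3 arrays (bars), in the NANCI shRNA, NANCI control, LL34 shRNA and LL34 control groups. Every axis spans the same log2 range. Etv4 stands at 9.17 to 9.28 on the NANCI shRNA arrays and at 8.11 or below on every other array, and Spry1 is lowest on the LL34 shRNA arrays.

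Etv4 changed most of the 10 genes. Its probe set, 17269954, read 9.28, 9.17 and 9.18 on the NANCI shRNA arrays, against 7.94, 8.11 and 8.10 on their scrambled arrays. The groups lay far apart, and the fitted change was 1.16 (SE 0.0666, limma adjusted p = 9.68e-07), a 2.23-fold higher signal. The LL34 shRNA arrays read 7.58, 7.64 and 7.74, against 7.76, 7.74 and 7.82 on their scrambled arrays. There the groups overlapped, at −0.12 (SE 0.0666, adjusted p = 0.294, 95% interval −0.27 to 0.03). The NANCI change exceeded the LL34 change by 1.28 (SE 0.0943, adjusted p = 6.18e-06), the largest such difference among the 10 genes.

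Etv5, a close relative of Etv4, was higher after both knockdowns. Etv1, the remaining gene of the PEA3 group and not among the 10, had 2 probe sets that differed. The brighter, 17289547, was lower after NANCI knockdown (−0.36, SE 0.112, limma adjusted p = 0.0421) and measured 0.10 after LL34 knockdown (adjusted p = 0.65). The dimmer, 17275123, did not pass after NANCI knockdown (−0.01, adjusted p = 0.977) or LL34 knockdown (0.10, adjusted p = 0.559). The main Etv5 probe set, 17329298, read 9.52, 9.27 and 9.27 with NANCI shRNA, against 8.74, 8.66 and 8.86 with its scrambled shRNA, a change of 0.60 (SE 0.126, limma adjusted p = 0.00537). It read 8.67, 8.46 and 8.79 with LL34 shRNA, against 8.19, 8.23 and 7.80 with its scrambled shRNA, a change of 0.57 (SE 0.126, adjusted p = 0.00988). In both sets every shRNA array lay above every scrambled array, and the 2 changes differed by 0.03 (95% interval −0.36 to 0.42, adjusted p = 0.945). The dimmer Etv5 probe set, 17547943, measured 0.08 after NANCI knockdown (adjusted p = 0.648) and 0.30 after LL34 knockdown (adjusted p = 0.0361), with means of 6.89 and 6.81 in the NANCI shRNA and scrambled groups. Its LL34 call was lost without LL34_shRNA replicate 1 (0.26, adjusted p = 0.131) or 3 (0.27, adjusted p = 0.124) and without LL34_control replicate 2 (0.25, adjusted p = 0.127) or 3 (0.25, adjusted p = 0.108). It was also just lost without NANCI_shRNA replicate 1 (adjusted p = 0.0504) or NANCI_control replicate 1 (adjusted p = 0.0507). Quantile normalization (adjusted p = 0.0631), centring (adjusted p = 0.0829) and the 6 LL34 arrays alone (adjusted p = 0.138) ended it too, and against pooled scrambled arrays it turned to −0.24 (adjusted p = 0.548). The difference between its changes, −0.22 (adjusted p = 0.282), passed without LL34_control replicate 1 (−0.32, adjusted p = 0.0478). With the mean of both probe sets, Etv5 measured 0.34 after NANCI knockdown and kept its call (adjusted p = 0.00887). Against all 6 scrambled arrays as 1 control group, which adds the gap between the sets, it measured 0.94 after NANCI knockdown (adjusted p = 0.00803) and 0.23 after LL34 knockdown (adjusted p = 0.436).

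All 3 ERK phosphatase genes rose after NANCI knockdown by similar amounts. Dusp4, a nuclear phosphatase of ERK and other MAP kinases, read 10.59, 10.43 and 10.49 with NANCI shRNA, against 9.79, 9.72 and 9.80 with scrambled shRNA, a change of 0.73 (SE 0.0736, limma adjusted p = 3.46e-05). Dusp5, a nuclear phosphatase that acts on ERK, read 8.64, 8.40 and 8.58, against 7.90, 7.99 and 8.03, a change of 0.57 (SE 0.0885, adjusted p = 0.000721). Dusp6, the cytoplasmic ERK phosphatase, read 12.28, 12.23 and 12.26, against 11.61, 11.55 and 11.62, a change of 0.66 (SE 0.0812, adjusted p = 0.000135). No shRNA array of these genes came within the range of the scrambled arrays. The fitted signals were 1.66-fold, 1.48-fold and 1.59-fold those of the scrambled group, in the order Dusp4, Dusp5 and Dusp6. The dimmer Dusp6 probe set, 17547559, rose by 0.33 (SE 0.0617, adjusted p = 0.00232). Its means of 5.94 and 5.61 were below the median of all probe set means, 6.718. The calls of the 3 phosphatase genes held under each of the 21 alternative settings, with changes from 0.50 to 0.86.

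The phosphatase genes did not move together after LL34 knockdown. Dusp4 read 9.86, 9.62 and 9.81 with LL34 shRNA, against 10.09, 10.02 and 9.96 with scrambled shRNA, and fell by 0.26 (SE 0.0736, limma adjusted p = 0.0342). That call was lost without LL34_shRNA replicate 2 (−0.19, adjusted p = 0.125) or 3 (−0.28, adjusted p = 0.066) and without LL34_control replicate 1 (−0.23, adjusted p = 0.0992) or 2 (−0.26, adjusted p = 0.083). Dusp6 read 11.34, 11.28 and 11.58, against 11.33, 11.19 and 11.12, which overlap (0.18, SE 0.0812, adjusted p = 0.172). Dusp5 read 7.72, 7.50 and 7.77, against 7.70, 7.52 and 7.57, and measured 0.07 (adjusted p = 0.722, 95% interval −0.13 to 0.26). The NANCI change exceeded the LL34 change by 0.99 in Dusp4 (SE 0.104, adjusted p = 6.41e-05), 0.50 in Dusp5 (SE 0.125, adjusted p = 0.0151) and 0.48 in Dusp6 (SE 0.115, adjusted p = 0.0124). With the replicate number as a block, the Dusp6 difference did not pass (adjusted p = 0.053). The dimmer Dusp6 probe set had a difference of 0.32 (adjusted p = 0.0228). That was lost with the block (adjusted p = 0.0914) and when some single arrays were left out, such as LL34_control replicate 2 (adjusted p = 0.0602).

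Promoter sequence from RefSeq (GRCm38.p6) was at hand for 7 of the 10 genes, as 8 windows, of which the 250 bases before the start were searched. The windows of Dusp5, Dusp6 and Etv5 are shown because these genes rose together after NANCI knockdown. Another Etv5 window, chr16:22438369-22438618, was searched but is not shown. Dusp4 and Etv4, which also rose, and Spry4 were not among the 7 genes. Capitals mark a CArG box, the motif bound by serum response factor, a partner of the ERK-driven ternary complex factors.
Dusp5, chr19:53528895-53529144, plus strand: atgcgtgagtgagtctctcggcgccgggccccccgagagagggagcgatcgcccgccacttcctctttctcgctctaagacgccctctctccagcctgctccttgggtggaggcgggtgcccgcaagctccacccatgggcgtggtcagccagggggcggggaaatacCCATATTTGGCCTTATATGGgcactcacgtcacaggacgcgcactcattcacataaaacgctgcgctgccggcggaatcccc
Dusp6, chr10:99262981-99263230, plus strand: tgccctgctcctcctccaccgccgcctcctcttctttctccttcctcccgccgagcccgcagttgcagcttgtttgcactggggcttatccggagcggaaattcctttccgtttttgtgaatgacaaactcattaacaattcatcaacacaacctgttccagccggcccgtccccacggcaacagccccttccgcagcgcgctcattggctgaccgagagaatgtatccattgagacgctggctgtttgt
Etv5, chr16:22439571-22439820, minus strand: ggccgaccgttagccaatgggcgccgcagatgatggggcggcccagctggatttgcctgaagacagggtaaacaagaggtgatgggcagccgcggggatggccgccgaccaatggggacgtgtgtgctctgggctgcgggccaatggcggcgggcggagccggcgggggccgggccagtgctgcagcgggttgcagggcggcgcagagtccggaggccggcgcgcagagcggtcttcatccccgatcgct
The Dusp5 window held a pair of CArG boxes that abut each other, the first letters 82 and 72 bases before the start. Of 32851 windows of this length 1.47% held at least 1 CArG box, and 6 windows held 2 or more. The other 7 windows of the feedback genes held none. Both strands were also searched for the Ets motif CCGGAAG (in 6.91% of all windows), the cyclic AMP response element TGACGTCA (1.55%) and the AP-1 motif TGANTCA (6.75%), and these letters were in none of the 8 windows. The CArG box was added to the search after the sequences had been seen, and a match describes letters, not binding.

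Sprouty genes, whose products inhibit signalling upstream of RAF, did not follow the phosphatases. Spry1 was lower after both knockdowns. It read 9.40, 9.42 and 9.37 with LL34 shRNA, against 10.01, 10.13 and 9.97 with scrambled shRNA, a change of −0.64 (SE 0.062, limma adjusted p = 5.36e-05), which leaves 64.0% of the scrambled signal. With NANCI shRNA it read 10.55, 10.53 and 10.56, against 10.87, 10.77 and 10.70, and fell by 0.23 (SE 0.062, adjusted p = 0.0203). Both pairs of groups were apart, and the fall was deeper after LL34 knockdown, by a tested difference of 0.41 (SE 0.0877, adjusted p = 0.0065). The NANCI call was lost without NANCI_shRNA replicate 1 (−0.24, adjusted p = 0.0516) or 2 (−0.22, adjusted p = 0.0649) or NANCI_control replicate 1 (−0.19, adjusted p = 0.0854), and with the 6 NANCI arrays alone (adjusted p = 0.0573). Against all 6 scrambled arrays it turned to 0.14 (adjusted p = 0.639), while the LL34 change was then −1.01 (adjusted p = 0.0067).

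Spry4 rose after LL34 knockdown. It read 8.20, 8.05 and 8.38 with LL34 shRNA, against 7.80, 7.59 and 7.89 with scrambled shRNA, and the groups did not overlap (0.45, SE 0.0941, limma adjusted p = 0.00721). With NANCI shRNA it read 8.65, 8.56 and 8.56, against 8.50, 8.48 and 8.59, which overlap (0.06, adjusted p = 0.77, 95% interval −0.15 to 0.27). The difference between those changes was −0.39 (SE 0.133, adjusted p = 0.0685). Quantile normalization across the 12 arrays ended the LL34 call, at 0.32 (adjusted p = 0.0504). Set against the 6 scrambled arrays pooled, Spry4 measured 0.07 (adjusted p = 0.835). That difference passed without LL34_shRNA replicate 2 (−0.47, adjusted p = 0.0322) or LL34_control replicate 3 (−0.45, adjusted p = 0.0352).

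Spry2, known from the tips of the branching lung epithelium, did not pass in either comparison. It read 11.01, 10.93 and 10.87 with NANCI shRNA, against 10.92, 10.74 and 10.93, and measured 0.07 (limma adjusted p = 0.623, 95% interval −0.09 to 0.23). With LL34 shRNA it read 10.38, 10.41 and 10.41, against 10.49, 10.56 and 10.34, and measured −0.07 (adjusted p = 0.656, 95% interval −0.23 to 0.10). The ranges overlapped in both sets, and the intervals do not exclude changes of up to 0.23 upward after NANCI knockdown or of −0.23 after LL34 knockdown.

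Spred1 and Spred2, membrane-bound inhibitors of RAS and RAF signalling, were both lower after NANCI knockdown. Spred1 read 10.10, 10.18 and 10.23 with NANCI shRNA, against 10.54, 10.57 and 10.58 with scrambled shRNA, and fell by 0.39 (SE 0.0746, limma adjusted p = 0.00287). Spred2 read 9.48, 9.56 and 9.46, against 9.79, 9.75 and 9.77, and fell by 0.27 (SE 0.0691, adjusted p = 0.0166). Both pairs of groups were apart. The Spred2 call was lost without NANCI_shRNA replicate 1 (−0.26, adjusted p = 0.0537) or 3 (−0.25, adjusted p = 0.0581) or NANCI_control replicate 1 (−0.26, adjusted p = 0.0555), and the Spred1 call held under all 21 alternatives.

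After LL34 knockdown the pair parted. Spred1 read 10.72, 10.70 and 10.72, against 10.52, 10.59 and 10.29, just above the scrambled range, and rose by 0.25 (SE 0.0746, limma adjusted p = 0.0456). Its call was lost under 15 of 21 alternatives. These included leaving out any 1 array other than LL34_control replicate 2, with adjusted p from 0.0528 to 0.122, and without LL34_control replicate 3 the change was 0.16 (adjusted p = 0.103). Spred2 read 9.83, 9.67 and 9.80, against 9.98, 9.98 and 9.78, which overlap (−0.14, adjusted p = 0.222, 95% interval −0.29 to 0.01). The changes of Spred1 differed between the knockdowns by −0.64 (SE 0.106, adjusted p = 0.00134), and passed under the 19 alternatives run, whereas those of Spred2 differed by −0.13 (adjusted p = 0.466).

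**Figure D2:**
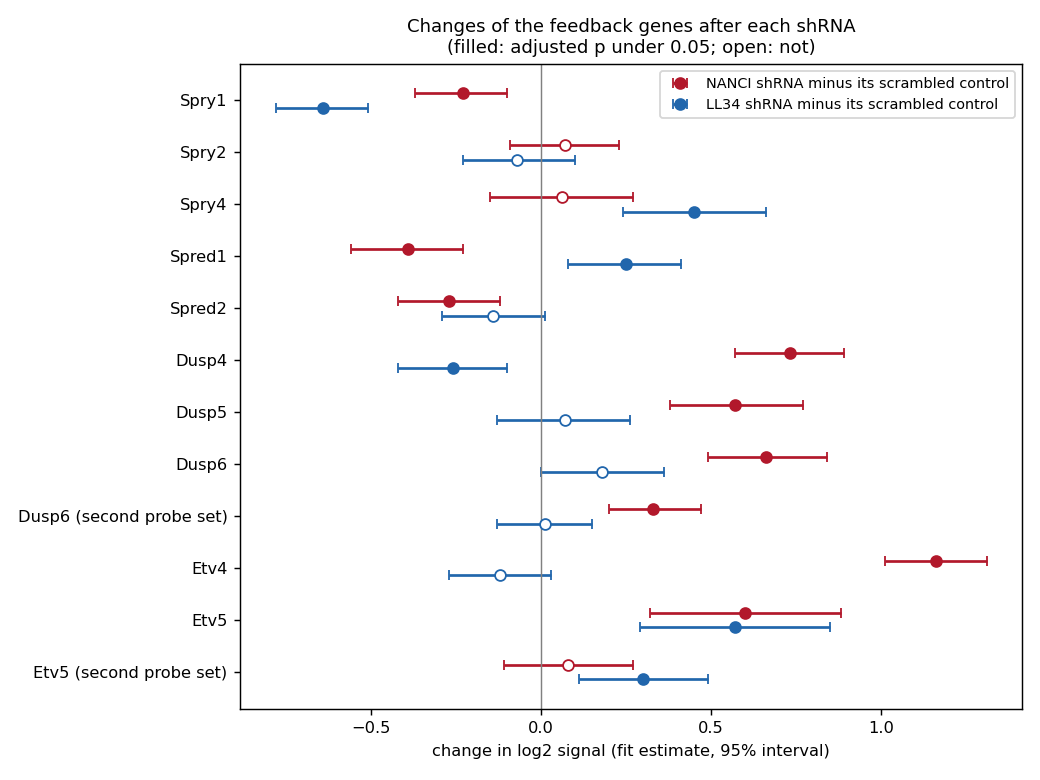
Change in log2 signal of each feedback gene probe set, shRNA minus its own scrambled control, after NANCI (red) and LL34 (blue) knockdown. Points are fit estimates, bars 95% intervals, and filled points have an adjusted p under 0.05. Etv4 and the phosphatase genes lie to the right after NANCI knockdown, with Dusp4 on opposite sides of 0 in the 2 comparisons.

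Set side by side, the knockdowns shared 2 calls in the same direction, the fall of Spry1 and the rise of Etv5. Spred1 and Dusp4 passed in both with opposite signs. Spred2, Dusp5, Dusp6 and Etv4 passed after NANCI knockdown alone, Spry4 after LL34 knockdown alone and Spry2 in neither. The comparisons had no arrays in common. The difference between the changes itself passed in 6 of 10 genes, Spry1, Dusp4, Dusp5, Dusp6 and Etv4 upward and Spred1 downward. Of all named genes, dim ones included, 12.0% passed upward and 12.3% downward. With the 20673 brighter probe sets fitted alone, 3737 passed upward and 4404 downward. The differences of Spry2, Spry4, Spred2 and Etv5 did not pass, although that of Spry4 passed under 6 of 19 alternatives, with adjusted p-values down to 0.0127.

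Across the 12 arrays, with the mean of each set of 6 subtracted, Dusp4, Dusp5, Dusp6 and Etv4 varied together. Pearson r was 0.94 between Dusp5 and Dusp6, 0.934 between Dusp4 and Etv4 and 0.912 between Dusp5 and Etv4. Spred1 ran against Dusp4 (r = −0.852) and Etv4 (r = −0.834), and Spry1 against Spry4 (r = −0.891) and Etv5 (r = −0.771). These values describe 12 arrays that share 4 group means, and largely restate the differences between groups. Genes outside the 10 with the most similar pattern to Etv5 were Cops8 (r = 0.987), Bap1 (0.978) and Mrpl28 (0.978). The closest to Dusp6 were Gabpb1 (0.981), Abcb10 (0.979) and Prpsap2 (0.978). Spry2 had its closest matches in Smagp (0.922), Mir1949 (0.914) and Akr1b8 (0.911).

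**Figure D3:**
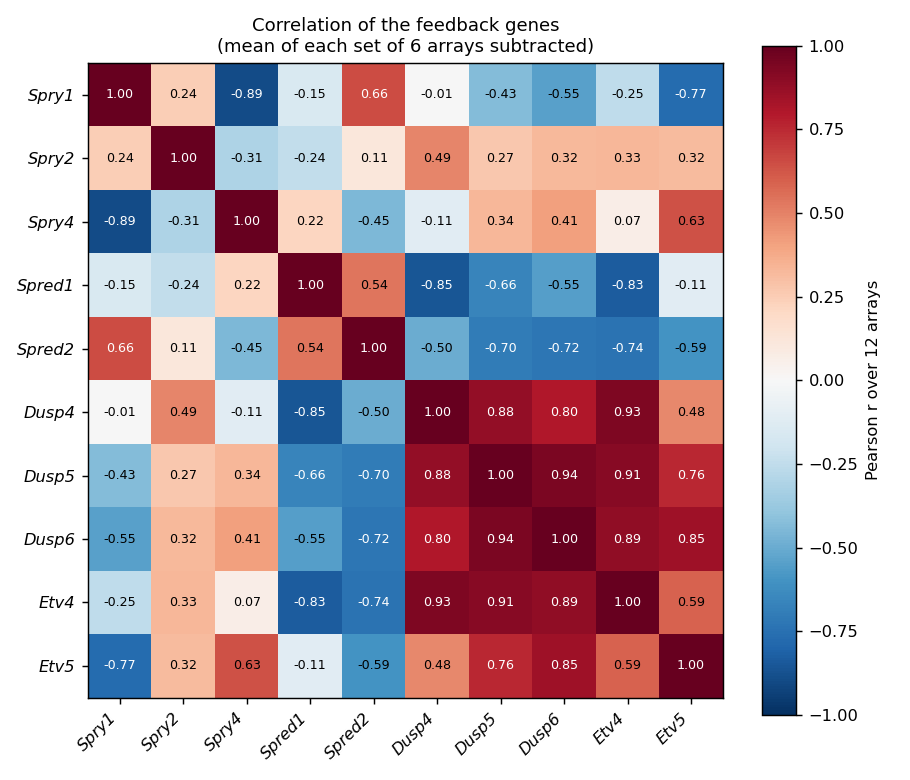
Pearson correlation between the feedback genes over 12 arrays after the mean of each set of 6 arrays was subtracted, from −1 (blue) to 1 (red). Dusp4, Dusp5, Dusp6 and Etv4 form a block with r of at least 0.801, and Spred1 and Spred2 are negative against all 4.

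Levels ordered the groups differently from gene to gene. The NANCI shRNA group was highest in 7 of 10 genes, the NANCI control group in Spry1, the LL34 shRNA group in Spred1 and the LL34 control group in Spred2. Levels compared across the sets include the gap between the sets. The orders, and the overlaps across sets other than those of the 2 scrambled groups, were not counted over all named genes. Whether they are particular to these genes was therefore not tested. Of the main probe sets, only that of Spry1 had all 4 groups apart, in the order NANCI control, NANCI shRNA, LL34 control and LL34 shRNA. The NANCI shRNA and NANCI control ranges overlapped in Spry2 and Spry4. The LL34 shRNA and LL34 control ranges overlapped in Spry2, Spred2, Dusp5, Dusp6 and Etv4. The LL34 shRNA range overlapped that of the NANCI control group, its neighbour in level, in Spred2, Dusp4, Dusp6 and Etv5, and the scrambled groups overlapped in Spred1 and Spred2. The LL34 control range lay wholly above the NANCI control range in 1 of the 10 genes and wholly below in 7. Among 22180 named genes it did so in 2503 and 11822. Between the scrambled groups, LL34 control minus NANCI control, 7 of 10 feedback genes were lower and 1, Dusp4, was higher, against 50.5% and 9.90% of named genes. With the 20673 brighter probe sets fitted alone, 8159 were lower and 2835 higher. The median of the 10 feedback genes was −0.38, against −0.23 over all named genes. Part of that gap followed the scaling, since with arrays centred on their medians 3 genes were lower (Spry1, Spry4 and Etv5) and 2 higher (Spred2 and Dusp4). Spry1 measured −0.74 in the deposited values, −0.68 after quantile normalization over all arrays and −0.44 after centring (adjusted p at most 0.000311), so its scrambled levels differed between the sets under each scaling.

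The rest of the pathway was examined with lists chosen for their roles, of which 58 of 66 genes had a named probe set. After NANCI knockdown 13 of the 58 rose and 16 fell, against 13.2% and 13.6% of all named genes. After LL34 knockdown 5 rose and 18 fell, against 9.77% and 10.3%. Fgfr2, the receptor through which FGF10 acts on the lung epithelium, had means of 7.38 with NANCI shRNA and 6.84 with scrambled shRNA, and rose by 0.54 (SE 0.132, limma adjusted p = 0.013). It had means of 6.99 with LL34 shRNA and 7.88 with scrambled shRNA, and fell by 0.88 (SE 0.132, adjusted p = 0.000947). The scrambled groups themselves differed in Fgfr2 by 1.04, LL34 control minus NANCI control (adjusted p = 9.38e-05), against a median of −0.23 over all named genes. Both shRNA means of Fgfr2 lay between the scrambled means. Fgfr3 fell after both knockdowns, by 0.34 (adjusted p = 0.0275) and by 0.93 (adjusted p = 8.42e-05). Fgfrl1, a receptor without a kinase domain, rose by 0.37 after LL34 knockdown (adjusted p = 0.0016) and measured 0.05 after NANCI knockdown. Fgfr1 and Fgfr4 measured between −0.05 and 0.01 in both. Of 8 FGF ligand genes, 0 passed limma after NANCI knockdown (0 also at an unadjusted p under 0.05), with changes from −0.21 to 0.10, and Fgf18 alone passed after LL34 knockdown (−0.73, adjusted p = 0.0026). Fgf18 (10.35) and Fgf1 (7.39) were the brightest in the NANCI scrambled group. The rest had means there of 5.71 (Fgf10) to 6.87 (Fgf21), where the median of all probe set means was 6.718. Changes of such dim ligands may go unseen.

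Ligands and receptors of the EGF family also feed ERK. Hbegf, a ligand of the EGF receptor, rose by 0.84 after NANCI knockdown (SE 0.0643, limma adjusted p = 5.59e-06) and fell by 0.38 after LL34 knockdown (adjusted p = 0.0019). Erbb3 fell by 0.51 and 0.60 after NANCI and LL34 knockdown, and Erbb2 fell by 0.41 after NANCI knockdown. Of 13 adaptor and cascade genes, 6 rose and 5 fell after NANCI knockdown, and 3 rose and 3 fell after LL34 knockdown (13.2%, 13.6%, 9.77% and 10.3% of all named genes, in that order). The adaptor gene Grb2 rose by 0.49 and Nras, a RAS GTPase gene, and Braf, a RAF kinase gene, fell by 0.48 and 0.45 after NANCI knockdown. Ksr1, a scaffold of the cascade, measured 0.70 after NANCI knockdown and −0.77 after LL34 knockdown, both past the threshold. Its scrambled groups differed by 0.55, LL34 control minus NANCI control (limma adjusted p = 0.0013).

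Inhibitors and ERK outputs outside the 10 genes were also counted. Of 14 other inhibitors, 2 rose and 4 fell after NANCI knockdown, where 13.2% and 13.6% of all named genes did. After LL34 knockdown 1 rose and 4 fell, where 9.77% and 10.3% did. Dusp7, a close relative of Dusp6, rose by 0.61 after NANCI knockdown (limma adjusted p = 9.14e-06), and Errfi1, an inhibitor of the EGF receptor, fell by 0.78. Dusp1, the immediate early MAP kinase phosphatase gene, fell by 1.07 after LL34 knockdown (adjusted p = 2.39e-06) and measured 0.14 after NANCI knockdown. Of 10 other ERK outputs, 2 rose and 4 fell after NANCI knockdown (median −0.31). Plaur, the urokinase receptor gene, rose by 1.36 and Ier3 by 0.90, while cyclin D1 (Ccnd1) fell by 0.34. After LL34 knockdown 0 of those 10 rose and 5 fell (median −0.46), with Ccnd1 down by 1.14, Phlda1 by 0.84 and Ier3 by 0.77. Fos and Egr1, immediate early factors, measured −0.50 and −0.40 after NANCI knockdown and −0.56 and 0.28 after LL34 knockdown, and neither passed. These 2 were singled out after their values were seen.

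**Figure D4:**
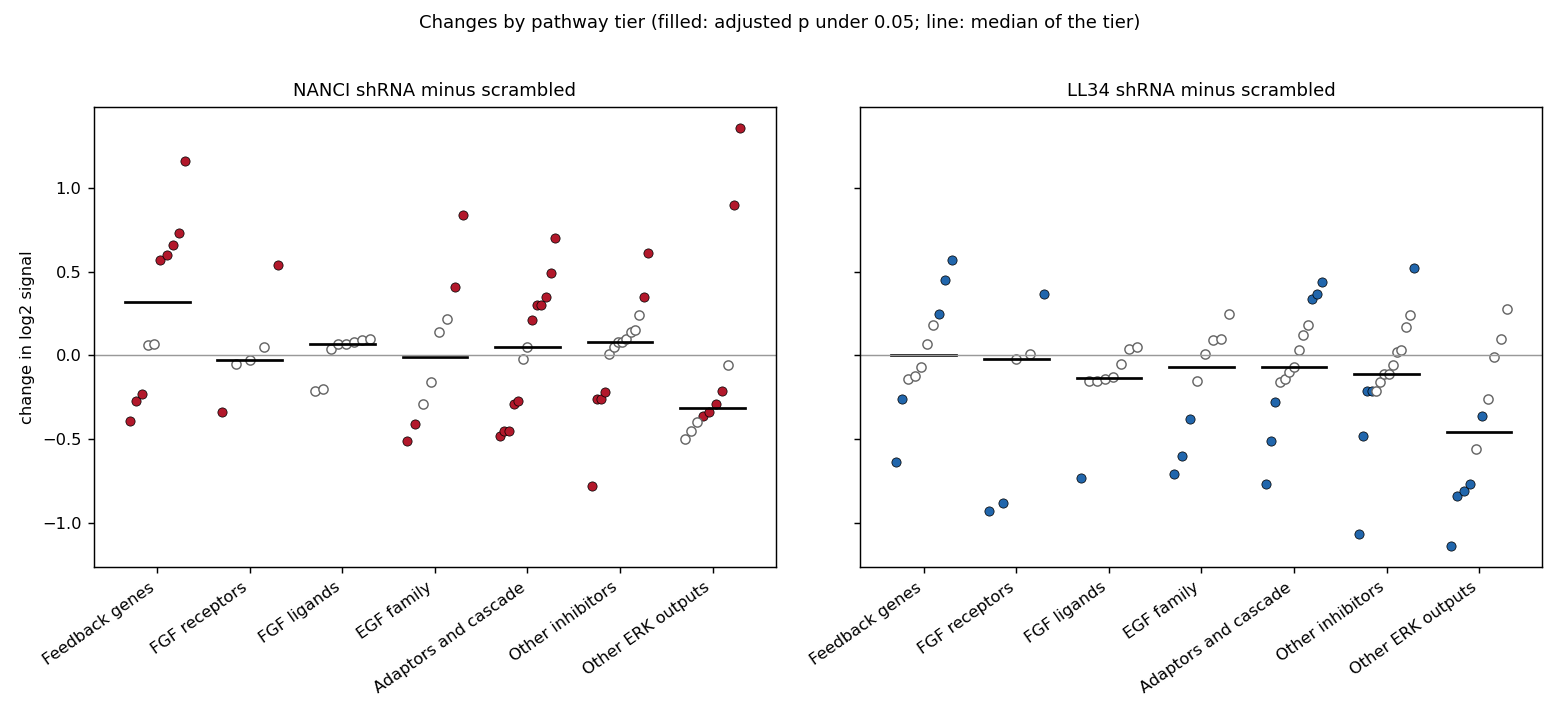
Change in log2 signal after NANCI (left) and LL34 (right) knockdown for the 10 feedback genes and for 6 other lists of the pathway. Each point is a gene, filled where its adjusted p is under 0.05, and lines are list medians. After NANCI knockdown the feedback genes have a median of 0.32 with members on both sides of 0, and after LL34 knockdown the median is 0.00.

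Markers were checked for the labelled line and for other cell types. Lung epithelial genes had means of 6.33 (Sftpd) to 11.13 (Nkx2-1) in the NANCI scrambled group. Sftpd, Epcam (6.37) and Krt18 (6.71) were below the median of all probe set means, 6.718. After NANCI knockdown 4 of the 10 lung epithelial genes were lower and 1 higher, against 13.6% and 13.2% of all named genes. Their summed linear signal ran from 6106 to 6803 in the NANCI shRNA group, against 10149 to 11219 in its scrambled group. After LL34 knockdown 4 of the 10 were lower and 2 higher, against 10.3% and 9.77% of all named genes. The sums were 7927 to 8349 in the LL34 shRNA group, against 9262 to 10938 in its scrambled group. Of 14 markers of fibroblasts, endothelium and leukocytes, Dcn (−0.91) and Tek (−1.05) fell and Cd68 (0.88) rose after NANCI knockdown, and Tek (−1.26) fell after LL34 knockdown. The remaining 11 did not pass after NANCI knockdown, nor the remaining 13 after LL34 knockdown. Of all named genes 13.6% fell and 13.2% rose after NANCI knockdown, and 10.3% fell and 9.77% rose after LL34 knockdown. Summed fibroblast signal was 4499 to 4918 with NANCI shRNA, against 7778 to 9042 with scrambled shRNA. That sum is mostly Dcn, which averaged 12.90 in the scrambled group, against 8.28 for Col1a1, the next brightest fibroblast marker. Summed endothelial signal was 394 to 417, against 523 to 543, and summed leukocyte signal 774 to 874, against 512 to 561. The brightest markers of these lists in the NANCI scrambled group were Tek (7.90) and Cd68 (8.47), the only ones that passed. With LL34 shRNA the sums were 7759 to 8353 for fibroblast, 290 to 299 for endothelial and 442 to 460 for leukocyte genes, against 7528 to 7841, 398 to 495 and 484 to 562 with scrambled shRNA. Log2 array signals have no true 0, so absence could not be read from them, and the part of these markers in the feedback gene changes was not tested. In such bulk samples a smaller share of cells and less RNA per cell cannot be told apart.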

How the data were processed

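RNA of 12 MLE12 cultures was measured on Affymetrix arrays. The authors deposited 1 table of log2 expression values, and per the submitters' processing notes oligo, RMA and limma were used. Not given in the sources used here are their versions, the order of steps and the array annotation's build. Of 41345 probe sets, 23521 had 1 gene symbol in the platform annotation, 1814 several and 16010 none. Only those with 1 symbol were named.

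The values were not normalized again. One limma fit (version 3.58.1, R 4.3.3) over all 12 arrays had 4 group means, with prior degrees of freedom of 2.84 and residual degrees of freedom of 8. Its contrasts were each shRNA group minus its scrambled group, the difference between those changes, and LL34 control minus NANCI control. Every adjusted p is limma's moderated test, two-sided, with Benjamini-Hochberg adjustment over all probe sets and a threshold of 0.05. The number of arrays limits the precision. The fit was tested on simulated data.

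The 10 genes and all gene lists were chosen with earlier results of these data known. All 10 genes are named. From other lists the text names all FGF receptors and up to 3 called genes per knockdown with the smallest p, plus Nkx2-1 and Sfta3-ps. Etv1, Fos, Egr1, the FGF ligands other than Fgf18 and the cell type markers other than Nkx2-1 were named outside this rule, after their values were seen. Alternatives left out each array, changed the scaling, the control arrays, the weights, the prior or the probe sets, or blocked on the replicate number.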

Additional observations from a re-analysis of the deposited data

Results flagged for a closer look

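In 6 of the 10 genes the change after NANCI knockdown differed from the change after LL34 knockdown by limma's test of the difference itself, given here as NANCI change minus LL34 change on the log2 scale. Etv4 differed by 1.28 (adjusted p = 6.18e-06), with changes of 1.16 and −0.12. Dusp4 differed by 0.99 (adjusted p = 6.41e-05), with changes of 0.73 and −0.26. Spred1 differed by −0.64 (adjusted p = 0.00134), with changes of −0.39 and 0.25. Dusp5 differed by 0.50 (adjusted p = 0.0151) and Dusp6 by 0.48 (adjusted p = 0.0124), each with a rise called after NANCI knockdown and none called after LL34 knockdown. The Dusp6 difference did not pass with the replicate number as a block (adjusted p = 0.053). Spry1 differed by 0.41 (adjusted p = 0.0065), having fallen after both. Each shRNA was compared with a scrambled group of its own set, and differences between the sets other than the shRNA target cannot be told apart from the target.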

How the results depend on the processing

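After NANCI knockdown, the calls of Etv4, Etv5, Dusp4, Dusp5, Dusp6 and Spred1 held under all 21 alternatives, and after LL34 knockdown that of Spry1 did. Leaving out 1 array at a time, 1 to 3 of the 10 genes were lower after NANCI knockdown, 1 to 2 were lower after LL34 knockdown, 1 to 2 were lower in the difference between the changes, and 0 to 2 were higher in LL34 control than in NANCI control. The replicate numbers did not pair the arrays: the deviations of same-numbered arrays correlated between −0.125 and 0.045. With the replicate block, 1 gene was lower after NANCI knockdown (Spred1), 1 after LL34 knockdown (Spry1) and 2 in the difference, where Dusp6 was lost (adjusted p = 0.053) and Spry4 passed (adjusted p = 0.0309). The block lost Spry1 (adjusted p = 0.0566) and Spred2 (adjusted p = 0.0648) after NANCI knockdown, and Spred1 (adjusted p = 0.0927) and Dusp4 (adjusted p = 0.0594) after LL34 knockdown. In the LL34 comparison, the 6 LL34 arrays alone gave 0 genes higher and 1 lower, and the 6 scrambled arrays pooled also gave 0 higher and 1 lower. Over all probe sets 6766 passed after LL34 knockdown, against 4309 with pooled scrambled arrays and 10163 with array weights, under which LL34_control replicate 3 had a weight of 0.219. Of the LL34 calls 59.3% were upward as deposited, 48.8% after quantile normalization and 50.2% after centring on medians. In the difference, 2 genes were lower (Spred1 and Spry4) with array weights, with dim probe sets (below the median level) left out and with the mean over a gene's probe sets. Between the scrambled groups, 2 genes were higher with quantile normalization, 2 with centring and 2 with array weights, and 3 were lower with centring. There 22561 probe sets passed, against 10994 when those below the median level were left out, which tests fewer. That gap had a median over all probe sets of −0.217 as deposited, −0.01 with quantile normalization and 0.083 with centring, and 15.7%, 46.4% and 64.7% of its calls were upward in that order. Signs turned for Spry1 after NANCI knockdown (0.14 with pooled scrambled arrays), for Dusp5 after LL34 knockdown (−0.04 with quantile normalization, −0.12 with pooled scrambled arrays) and for Dusp6 after LL34 knockdown (−0.01 with pooled scrambled arrays). The Etv5 difference, 0.03, ran from −0.06 to 0.17 when arrays were left out and was −0.09 with the mean over probe sets. Pooled scrambled arrays add the gap between the sets by construction, and the cause of the other shifts was not tested. The block and 6-array fits were not run between the scrambled groups, nor the 6-array and pooled-control fits for the difference.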
